A study of Mus musculus with 18 samples.

Results

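The genes described here are imprinted mouse genes, taken as a list of 38 names and grouped by the imprinted locus they belong to. The list was matched by gene symbol to a table of 21995 genes, and 37 of the 38 had a line in it. Slc22a2 was not analysed here. The 37 fall into the H19-Igf2 locus with 2 genes, the Kcnq1ot1 locus with 5, the Dlk1-Meg3 locus with 5, the Peg3 locus with 3, the Peg10 locus with 4, the Snrpn locus with 5 and the Igf2r locus with 3, and 10 genes stand alone. By their known allele, 14 are expressed from the maternal copy and 22 from the paternal copy, and Gnas yields transcripts of both kinds. The read counts here do not separate the alleles, so every value is the sum of both.

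Imprinted genes are expressed mainly from one parental copy because DNA methylation laid down in the egg or the sperm marks a control region that governs a whole cluster of neighbours. Many clusters hold a long noncoding RNA from one copy and growth-related protein genes from the other, as with H19 and Igf2 or Kcnq1ot1 and Cdkn1c. Paternally expressed members often promote growth of the embryo and placenta, maternally expressed members often restrain it, and many of them are low in pluripotent cells and abundant in mesoderm, placenta and yolk sac.

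The study profiled bulk RNA of mouse embryonic stem cells (ESCs) by sequencing. There were 18 libraries in 6 groups of 3: the Parental genotype and the Oct1 cKO genotype, each at day 0, day 2 and day 6 of differentiation. The differentiating cells sat on 0.01% gelatin in medium with retinoic acid at 1.5 ug/ml, a treatment both genotypes share. Oct1 is the transcription factor encoded by Pou2f1, and cKO is a conditional knockout as the labels name it; they do not give the deleted exons or the Cre, and no label ties a library to a culture of its own. The p-values therefore set a difference between groups against the variation of replicate libraries, and that variation may be only technical. Library totals ran from 13694126 to 19296966 counts. Values are in CPM, counts scaled to a common library size by TMM (edgeR), in the order of replicates 1, 2 and 3, which are names only.

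Pou2f1 itself measured 135, 124 and 127 CPM in the parental libraries at day 0, 105, 97.9 and 106 at day 2 and 64.9, 61.1 and 64.2 at day 6. The Oct1 cKO libraries held 87.2, 88.2 and 62.4 CPM of Pou2f1 at day 0, 59.5, 60.8 and 58.8 at day 2 and 36.03, 45.3 and 44.5 at day 6, lower at each day by a log2 fold change of -0.70, -0.79 and -0.60. The counts are per gene and not per exon, so they check the direction of the labels, and the source of the remaining Pou2f1 reads was not tested. Among the replicate pairs, the day 0 Oct1 cKO library 3 stood apart from libraries 1 and 2, with a chi-square per degree of freedom of 12.002 and 11.6 against 1.24 to 7.47 for the other 16 pairs. Summed over 8 pluripotency genes, the ESC markers lay at 6855 to 6994 CPM at day 0, 1174 to 1230 at day 2 and 50.9 to 55.8 at day 6 in parental cells, and at 7942 to 8824, 2671 to 2812 and 195 to 198 in Oct1 cKO cells.

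Promoter windows of 300 bases (250 before to 50 after an annotated start) were read from RefSeq for GRCm38.p6, and 31 of the 37 members had one or more, 50 windows in all. They were searched on both strands for the octamer ATGCAAAT, the classic Oct1 recognition letters, for TGCCGC, the core recognised by the imprint-keeping zinc finger protein ZFP57, and for AGGTCA repeated in the same direction with 5 bases between, a form bound by retinoic acid receptors. The octamer was in 1 member window (2.0%), that of Asb4, against 1.74% of all 32851 windows. TGCCGC was in 10 windows (20%) of Grb10, Igf2, Meg3, Mest, Nnat, Plagl1, Snrpn, Zdbf2 and Zim1, against 11.6% of all windows. The exact 95% interval of that count was 5.02 to 16.86 of 50 windows, which includes the share of all windows. Mest enters it through windows 2 and 3, which overlap almost fully and hold the same matches. The direct repeat was in 0 of the 50 and in 3 of all windows. The median CpG count was 11.5 in member windows and 7 in all windows. A match is a description of letters and not a binding site. The windows below are those of Mest and Meg3, which carry TGCCGC and differed between genotypes; of Peg3, whose start faces that of Usp29; and of Asb4, the one with an octamer. Capitals mark the motif, read here on its complementary strand (GCGGCA for TGCCGC and ATTTGCAT for the octamer), and the Peg3 window holds none of the 3 motifs.
Mest, window 2 (chr6:30737800-30738099, + strand): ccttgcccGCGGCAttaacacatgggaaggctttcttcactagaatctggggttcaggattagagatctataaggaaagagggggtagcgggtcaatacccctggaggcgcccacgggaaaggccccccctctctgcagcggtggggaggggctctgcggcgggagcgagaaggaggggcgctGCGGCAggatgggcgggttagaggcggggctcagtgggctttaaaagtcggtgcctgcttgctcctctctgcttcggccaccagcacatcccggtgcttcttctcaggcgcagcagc
Meg3, window 1 (chr12:109540746-109541045, + strand): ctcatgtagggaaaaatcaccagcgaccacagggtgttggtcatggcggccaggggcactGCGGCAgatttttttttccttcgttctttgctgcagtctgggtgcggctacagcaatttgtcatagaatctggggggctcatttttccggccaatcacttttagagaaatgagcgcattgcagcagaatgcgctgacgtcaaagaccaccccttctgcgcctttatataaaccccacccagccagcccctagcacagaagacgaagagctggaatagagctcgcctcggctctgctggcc
Peg3 (chr7:6730370-6730669, - strand): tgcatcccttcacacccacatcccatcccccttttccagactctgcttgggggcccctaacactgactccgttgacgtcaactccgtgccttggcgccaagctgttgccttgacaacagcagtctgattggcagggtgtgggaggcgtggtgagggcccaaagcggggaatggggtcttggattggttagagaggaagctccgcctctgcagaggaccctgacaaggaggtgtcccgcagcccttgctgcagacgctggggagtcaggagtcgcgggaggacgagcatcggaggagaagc
Asb4, window 1 (chr6:5383136-5383435, + strand): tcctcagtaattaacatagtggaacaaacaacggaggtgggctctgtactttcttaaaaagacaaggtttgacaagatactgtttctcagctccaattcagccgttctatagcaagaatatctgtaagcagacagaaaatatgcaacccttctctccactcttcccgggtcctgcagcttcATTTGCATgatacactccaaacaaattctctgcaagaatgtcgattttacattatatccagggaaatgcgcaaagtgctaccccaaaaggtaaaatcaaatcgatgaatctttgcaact

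Several members are also hosts of microRNAs. RefSeq hairpins lie inside H19 (1), Igf2 (1), Meg3 (1), Mest (1), Usp29 (1), Rian (3) and Mirg (14), and across Rtl1 there are 6 on the opposite strand and 1 on the same strand. These hairpins give 55 mature names with 54 different seeds. The mature microRNAs were not measured by these libraries. The arms hosted by H19 and Mest, members with some of the widest ranges of level, are given with their seed (bases 2 to 8) in capitals.
miR-675-5p, in H19: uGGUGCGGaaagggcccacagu
miR-675-3p, in H19: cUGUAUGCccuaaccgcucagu
miR-335-5p, in Mest: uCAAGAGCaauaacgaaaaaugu
miR-335-3p, in Mest: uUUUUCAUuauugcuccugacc

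The share of reads from the imprinted genes grew over the retinoic acid course in both genotypes. Together the 37 members took 0.212%, 0.209% and 0.214% of the reads of parental libraries at day 0, 1.6%, 1.69% and 1.67% at day 2 and 3.08%, 3.02% and 2.95% at day 6. The Oct1 cKO libraries held 0.230%, 0.233% and 0.199% at day 0, 0.620%, 0.633% and 0.631% at day 2 and 3.42%, 3.31% and 3.41% at day 6. The 2 genotypes therefore overlapped at day 0, stood furthest apart at day 2, where every Oct1 cKO share was below every parental share, and lay in reversed order at day 6.

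At day 6, H19, Peg3 and Peg10 made up most of this share. H19 held a mean of 1.17% of all counts in parental cells at day 6, where it ranked first of the 21995 genes by CPM, and Peg3 ranked second with 0.774%. Peg10 ranked first in Oct1 cKO cells at day 6 with 1.31%, and H19 second with 1.22%. On the scale of CPM per kilobase of exon, which allows genes to be compared, the day 6 parental levels were 4542 for H19, 556 for Peg3, 462 for Mest and 450.2 for Peg10. The day 6 Oct1 cKO levels per kilobase were 5494 for H19, 2168 for Peg10, 324 for Slc38a4, 252 for Peg3 and 52.3 for Mest. Paternally expressed members took a mean of 1.48% of parental and 1.9% of Oct1 cKO counts at day 6, and maternally expressed members 1.46% and 1.43%.

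**Figure D1:**
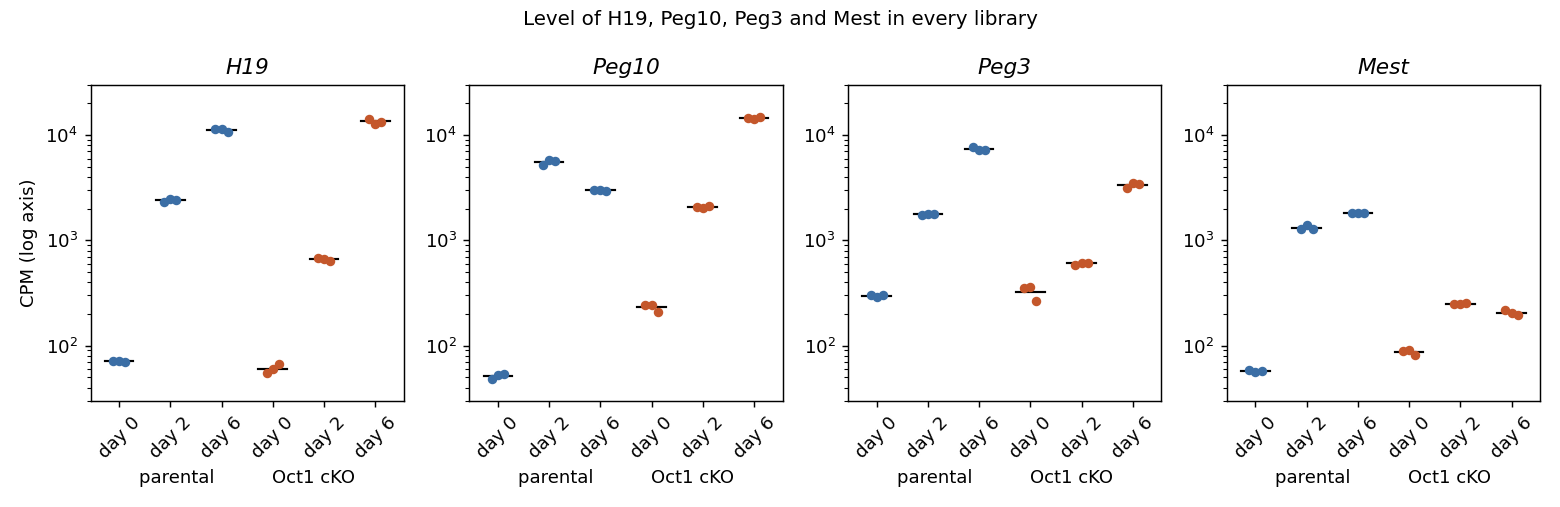
CPM on a log axis of H19, Peg10, Peg3 and Mest in each of the 18 libraries (points) with the group mean (black bar), parental in blue and Oct1 cKO in orange. H19 ends at a similar height in both genotypes after a lower day 2 in Oct1 cKO cells, Peg10 ends higher, and Peg3 and Mest end lower.

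The difference between genotypes was tested for each gene at each day by edgeR's quasi-likelihood test over 18352 genes, and a gene was called at a Benjamini-Hochberg adjusted p under 0.05. Of the members, 36 were tested; Rtl1 fell under the filter on low counts. At day 0, 8 members were called higher in Oct1 cKO cells (26.4% of all genes tested were) and 12 lower (27.0%), with a median log2 fold change of 0.01 over the 36 and 0.00 over all genes. At day 2, 5 were called higher (33.7% of all genes) and 26 lower (33.6%), and the median was -0.94 against -0.01 for all genes. At day 6, 16 were called higher (36.7%) and 18 lower (37.8%), with a median of -0.26 against 0.00. The counts at day 0 thus stood near the background in both directions, while 26 of 36 lower at day 2 stood above it. At day 6 the members exceeded the shares of all genes in both directions, and 2 of 36 were not called. The ESC markers moved beside the day 2 result: 8 of 8 were called higher in Oct1 cKO cells, with a median log2 fold change of 1.04 and sums of 2671 to 2812 CPM against 1174 to 1230 in parental cells. Of the same 8, 3 were called higher and 0 lower at day 0, and 6 higher and 1 lower at day 6. Their part in the results on the members was not tested.

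Differences of 2-fold or more were called for 3 members higher and 3 lower at day 0 (6.13% and 6.58% of all genes), 1 higher and 17 lower at day 2 (6.63% and 13.9%), and 10 higher and 14 lower at day 6 (15.6% and 20.3%). The 3 libraries of one genotype lay wholly above or below those of the other for 22 members at day 0, 32 at day 2 and 35 at day 6, where 57.6%, 71.0% and 76.8% of all genes did. Maternally expressed members had 0 higher and 10 lower of 14 at day 2, with a median log2 fold change of -0.88, and paternally expressed members 5 higher and 15 lower of 21, with a median of -1.0. At day 6 the maternal class had 6 higher and 7 lower with a median of -0.44, and the paternal class 10 higher and 10 lower with a median of 0.31. At day 0 the maternal class had 3 higher and 6 lower (median -0.29) and the paternal class 4 higher and 6 lower (median 0.08). The paternal median at day 6 was 0.07 to 0.11 with no filter on low counts, with DESeq2 or with library sizes alone, and 0.09 without Oct1 cKO library 2 of day 6, so its size depended on the processing.

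The order of calls over the 3 days differed from gene to gene. The commonest course, shared by 8 members, was no call at day 0 and lower in Oct1 cKO cells at day 2 and at day 6: Peg3, Zim1, Asb4, Ndn, Magel2, Mkrn3, Peg12 and Slc22a3. Usp29, Grb10 and Nnat were lower at all 3 days. Changes of side were also seen. H19, Slc22a18 and Sfmbt2 were lower at day 0 and day 2 and higher at day 6, Mirg, Peg10 and Zdbf2 were higher, then lower, then higher, and Snrpn, Slc38a4 and Impact were lower at day 0 and higher at both later days.

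**Figure D2:**
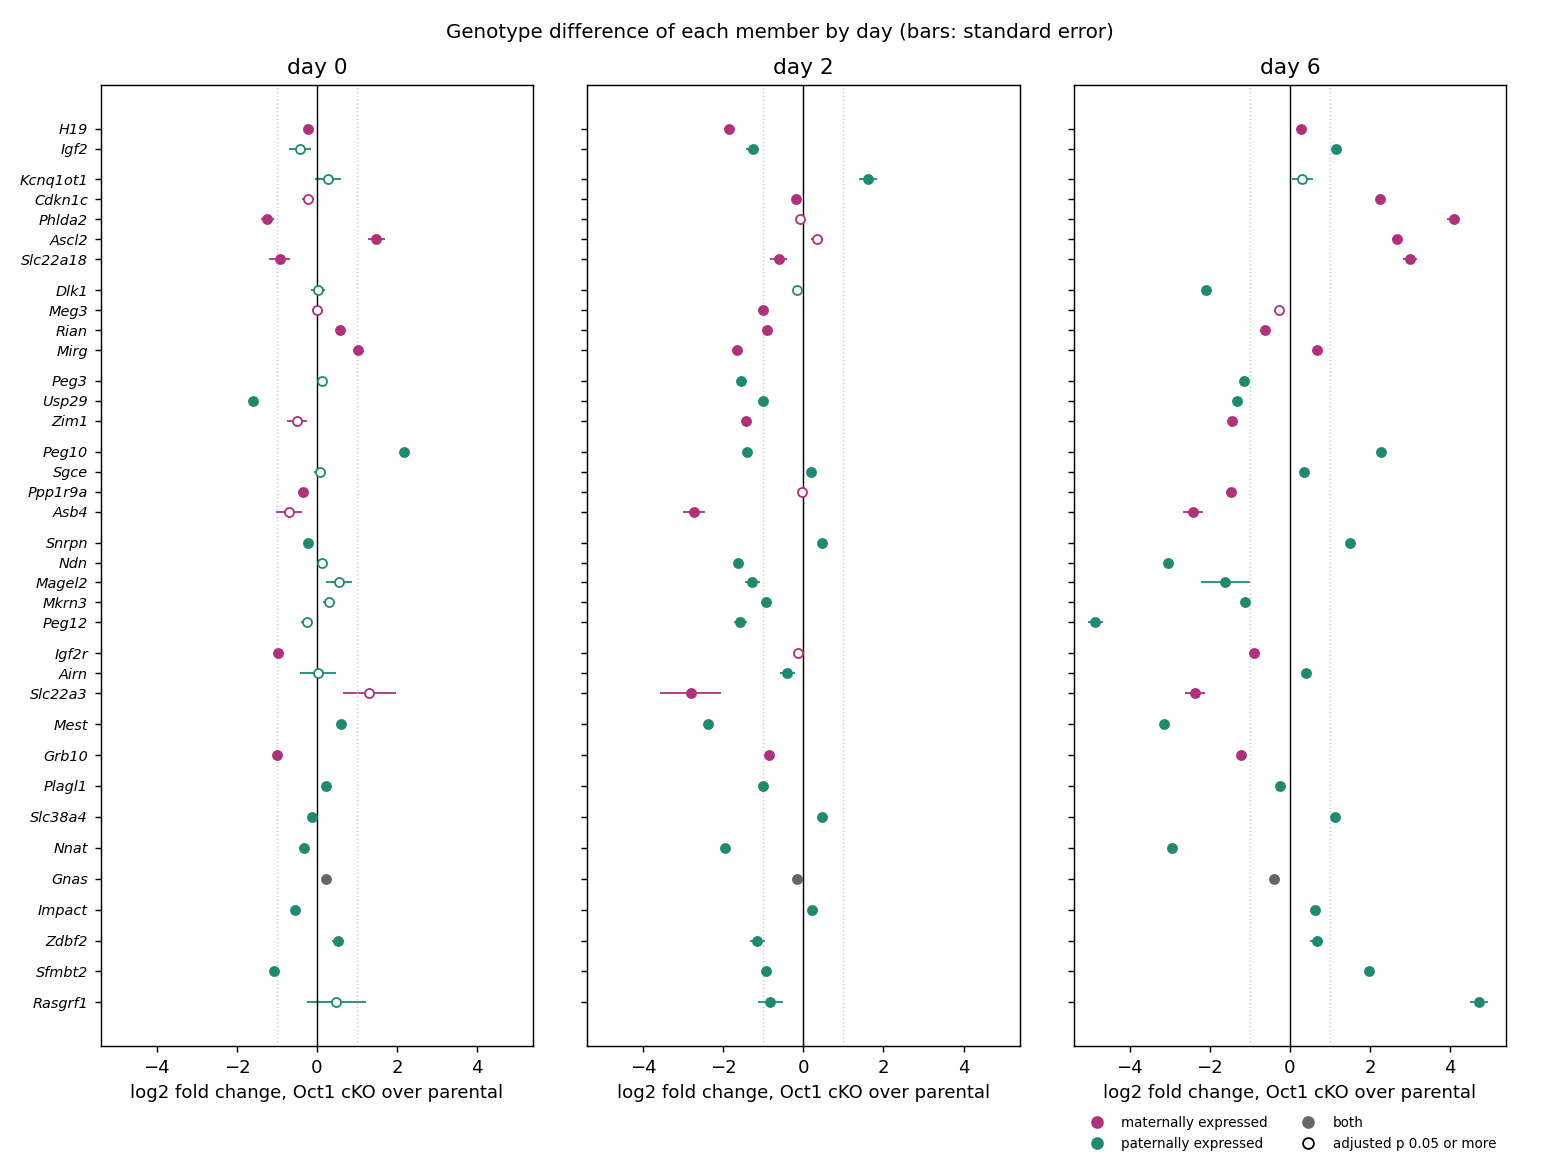
Log2 fold change of Oct1 cKO over parental cells for the 36 tested members at day 0, day 2 and day 6 (x axis), grouped by locus from top to bottom; bars are standard errors, colours the expressed allele, open symbols an adjusted p of 0.05 or more and dotted lines a 2-fold difference. Most points sit left of 0 at day 2 (26 called lower), and at day 6 they spread from -4.86 for Peg12 to 4.72 for Rasgrf1.

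At the H19-Igf2 locus on chromosome 7, both genes rose over the retinoic acid course, were lower in Oct1 cKO cells at day 2 and were higher there at day 6. H19 is a maternally expressed long noncoding RNA, and Igf2 encodes a fetal growth factor from the paternal copy. H19 measured 71.4, 71.2 and 70.3 at day 0, 2305, 2470 and 2413 at day 2 and 11431, 11438 and 10653 at day 6 in parental libraries (CPM). H19 in Oct1 cKO libraries measured 55.1, 59.6 and 66.3 at day 0, 686, 669.9 and 644 at day 2 and 14354, 12854 and 13339 at day 6. The day 0 groups lay close together without overlapping, the day 2 groups were 3.59-fold apart and the day 6 groups 1.21-fold apart in the opposite direction. The log2 fold changes were -0.23 ± 0.06 (SE), adjusted p = 0.00122 at day 0, -1.85 ± 0.05 (SE), adjusted p = 5.26e-27 at day 2 and 0.27 ± 0.05 (SE), adjusted p = 8.12e-06 at day 6. The day 6 difference of H19 was not called with library sizes alone (0.07, adjusted p = 0.187). Igf2 measured 0.875, 1.52 and 1.74 at day 0, 5.2, 5.81 and 4.58 at day 2 and 22.5, 21.7 and 21.8 at day 6 in parental libraries (CPM). Igf2 in Oct1 cKO libraries measured 1.203, 1.02 and 0.878 at day 0, 2.41, 1.93 and 2.14 at day 2 and 50.4, 47.4 and 49.7 at day 6. Igf2 overlapped between genotypes at day 0, was lower in all Oct1 cKO libraries at day 2 and higher in all of them at day 6, by log2 fold changes of -0.43 ± 0.27, -1.27 ± 0.16 and 1.16 ± 0.07 (SE, adjusted p = 0.182, 5.25e-09 and 2.52e-17). Without parental library 1 of day 0 the day 0 value was -0.66 and passed the test (adjusted p = 0.0485). Per kilobase of exon, the day 6 level of H19 was 4542 and of Igf2 3.85 CPM in parental cells. Of the exonic length of Igf2, 62.8% is shared with Gm49394 on the same strand, and reads of the 2 cannot be told apart.

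Marker genes of feeder cells or other fibroblasts also differed between genotypes. Their sum was lower in Oct1 cKO libraries at each day. Summed over 10 such genes (Col1a1, Col1a2, Col3a1, Thy1, Pdgfrb, Fap, Postn, Lum, Dpt and Twist2), the level was 877 to 937 CPM in parental and 265 to 276 in Oct1 cKO libraries at day 0, 166 to 179.6 and 85.9 to 107 at day 2, and 3797 to 4086 and 475 to 573 at day 6. Of the 9 tested, 0 were called higher and 7 lower at day 0, 2 and 5 at day 2, and 1 and 6 at day 6. Over all genes the shares were 26.4% and 27.0%, 33.7% and 33.6%, and 36.7% and 37.8%. Dpt was at 0 in the day 2 Oct1 cKO libraries. The part of these markers in the results on H19, Igf2, Mest, Dlk1 and Peg3 was not tested. In bulk RNA, fewer cells of a type and less RNA per cell cannot be told apart.

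At the Kcnq1ot1 locus, the 4 maternally expressed members were higher in Oct1 cKO cells at day 6. Kcnq1ot1 is a paternally expressed antisense RNA that silences its neighbours on the same copy; the neighbours tested here, expressed from the maternal copy, are Cdkn1c, a cyclin-dependent kinase inhibitor, Phlda2, which restrains placental growth, Ascl2, a transcription factor of the trophoblast lineage, and the transporter Slc22a18. All 4 differed by 2-fold or more at day 6, where Kcnq1ot1 was not called. At day 2 Kcnq1ot1 was higher in Oct1 cKO cells, and Cdkn1c (-0.19) and Slc22a18 (-0.61) were lower. Phlda2 (-0.08) and Ascl2 (0.33) were not called at day 2.

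Kcnq1ot1 measured 11.1, 10.1 and 9.37 at day 0, 23.8, 13.7 and 19.6 at day 2 and 17.9, 13.96 and 15.2 at day 6 in parental libraries (CPM). Kcnq1ot1 in Oct1 cKO libraries measured 13.7, 12.5 and 10.9 at day 0, 55.6, 69.2 and 51.8 at day 2 and 11.8, 25.9 and 20.8 at day 6. The day 2 libraries did not overlap, with a log2 fold change of 1.62 ± 0.22 (SE), adjusted p = 2.35e-05, while those of day 0 and day 6 did. Without Oct1 cKO library 1 of day 6, its day 6 difference was 0.56 and passed (adjusted p = 0.0364). Cdkn1c measured 4.19, 5.63 and 4.09 at day 0, 28.6, 29.3 and 28.6 at day 2 and 54.5, 61.98 and 60.95 at day 6 in parental libraries (CPM). Cdkn1c in Oct1 cKO libraries measured 3.53, 4.39 and 4.02 at day 0, 25.4, 25.3 and 25 at day 2 and 306, 272 and 274 at day 6. Cdkn1c overlapped at day 0, was slightly lower at day 2 (-0.19 ± 0.07) and 4.8-fold higher at day 6 (2.26 ± 0.06 (SE), adjusted p = 5.43e-30). Phlda2 measured 6.38, 7.88 and 6.88 at day 0, 18.7, 18.03 and 18.98 at day 2 and 0.796, 1.25 and 1.097 at day 6 in parental libraries (CPM). Phlda2 in Oct1 cKO libraries measured 2.26, 2.59 and 3.95 at day 0, 17.5, 17.6 and 17.5 at day 2 and 19.7, 18.3 and 15.4 at day 6. Phlda2 had fallen in parental cells by day 6 and had not in Oct1 cKO cells, a 17-fold difference in mean CPM (4.09 ± 0.16 (SE), adjusted p = 4.26e-24), after a day 0 at which it was lower in Oct1 cKO cells (-1.24 ± 0.16).

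Ascl2 measured 1.81, 1.74 and 2.605 at day 0, 5.38, 6.57 and 5.03 at day 2 and 5.27, 3.74 and 5.07 at day 6 in parental libraries (CPM). Ascl2 in Oct1 cKO libraries measured 4.14, 5.804 and 7.03 at day 0, 6.53, 7.06 and 7.82 at day 2 and 34.4, 29.1 and 27.2 at day 6. Ascl2 was higher in every Oct1 cKO library at day 0 (1.48 ± 0.21) and day 6 (2.68 ± 0.13 (SE), adjusted p = 7.19e-19) and overlapped at day 2, where it passed without parental library 2 (0.43). Slc22a18 measured 1.81, 1.63 and 2.05 at day 0, 1.94, 2.27 and 2.34 at day 2 and 0.846, 0.986 and 1.097 at day 6 in parental libraries (CPM). Slc22a18 in Oct1 cKO libraries measured 1.203, 0.706 and 0.941 at day 0, 1.204, 1.28 and 1.805 at day 2 and 7.44, 7.41 and 8.77 at day 6. Slc22a18 stayed low in all libraries but those of day 6 in Oct1 cKO cells, which were 8.07-fold above the parental mean (3.003 ± 0.18 (SE), adjusted p = 4.99e-18). Its lower level at day 2 (-0.61) did not pass without Oct1 cKO library 1 (-0.52) or library 2 (-0.54). Trophoblast markers moved beside this locus: the sum of 8 genes, Ascl2 among them, was 68.2 to 70.2 CPM in parental and 35.2 to 38.02 in Oct1 cKO libraries at day 0 and 171 to 186 and 732 to 796 at day 6. At day 6, 6 of the 8 were higher and 0 lower (36.7% and 37.8% of all genes were). The 6 were Elf5, Cdx2, Gata3, Tfap2c, Krt7 and Ascl2. Of these markers, Prl3d1 and Gcm1 were not called, and Prl3d1 was at 0 in the libraries of day 0 and day 2. Their part in the day 6 values of Phlda2, Ascl2, Cdkn1c and of Peg10 and Sfmbt2 below was not tested.

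At the Dlk1-Meg3 locus on chromosome 12, the maternal noncoding RNA Meg3 and the hosts of small nucleolar RNAs (Rian) and microRNAs (Mirg) were lower in Oct1 cKO cells at day 2, and the paternal Dlk1, a transmembrane protein related to Notch ligands, was lower at day 6. Dlk1 measured 3.38, 4.16 and 3.597 at day 0, 21.8, 22.5 and 24.5 at day 2 and 160, 167 and 168 at day 6 in parental libraries (CPM). Dlk1 in Oct1 cKO libraries measured 3.38, 3.61 and 4.33 at day 0, 21.4, 18.3 and 22.2 at day 2 and 43.8, 38.2 and 34.8 at day 6. Dlk1 overlapped at day 0 and day 2 (-0.15 ± 0.08, adjusted p = 0.0914), though the day 2 value passed without parental library 1 (-0.21), without Oct1 cKO library 3 (-0.22) and with library sizes alone (-0.35). At day 6 every Oct1 cKO library was under a parental level that was 4.24 times higher on average (-2.08 ± 0.07 (SE), adjusted p = 4.66e-27). Meg3 measured 91.3, 93.6 and 92.05 at day 0, 315, 273 and 325 at day 2 and 998, 923 and 995 at day 6 in parental libraries (CPM). Meg3 in Oct1 cKO libraries measured 94.6, 92.2 and 92.5 at day 0, 139, 176 and 141 at day 2 and 638, 904 and 896 at day 6. Meg3 overlapped between genotypes at day 0 (0.01 ± 0.13), was 2.0-fold lower at day 2 (-1.0 ± 0.12 (SE), adjusted p = 7.50e-06) and was not called at day 6 (-0.26 ± 0.12 (SE), adjusted p = 0.0641), though the libraries did not overlap. Without Oct1 cKO library 3 of day 6, Meg3 passed at day 6 (-0.35), as it did without library 2 (-0.30) and with library sizes alone (-0.46).

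Mirg measured 5.44, 4.78 and 5.02 at day 0, 20.4, 15.9 and 19.03 at day 2 and 42.99, 40.1 and 43.8 at day 6 in parental libraries (CPM). Mirg in Oct1 cKO libraries measured 10.2, 9.65 and 11.2 at day 0, 5.07, 6.42 and 5.88 at day 2 and 66.6, 66.95 and 70.9 at day 6. Mirg changed side between days, with log2 fold changes of 1.03 ± 0.12, -1.67 ± 0.10 and 0.69 ± 0.07 and no overlap at any day. Rian, the small nucleolar RNA host between Meg3 and Mirg, had group means of 128 ± 2.86, 458 ± 8.02 and 1440 ± 8.44 CPM (SD, n = 3) in parental and 189 ± 11.1, 245 ± 21.4 and 935 ± 35.7 in Oct1 cKO cells. It was higher at day 0 (0.57 ± 0.05) and lower at day 2 (-0.90 ± 0.05) and day 6 (-0.62 ± 0.05). Rtl1, a retrotransposon-derived gene of the placenta, had 0 to 7 counts per library and was not tested. On the scale per kilobase, Rian was the highest of the locus at day 6 (78.97 CPM in parental and 51.3 in Oct1 cKO cells), with Meg3 next (53.7 and 44.9).

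All 3 members of the Peg3 locus were lower in Oct1 cKO cells at day 2 and day 6, each by 2-fold or more. They are Peg3, a zinc finger protein, Usp29, a ubiquitin-specific protease gene whose start lies 164 bases from that of Peg3 on the other strand, and the maternally expressed zinc finger gene Zim1. Peg3 measured 300.1, 292 and 303 at day 0, 1740, 1793 and 1765 at day 2 and 7774, 7235 and 7229 at day 6 in parental libraries (CPM). Peg3 in Oct1 cKO libraries measured 353, 361 and 266 at day 0, 586, 613 and 615 at day 2 and 3159, 3477 and 3449 at day 6. The groups overlapped at day 0: Oct1 cKO library 3 lay below the parental values and libraries 1 and 2 above; they did not overlap later. The log2 fold changes were 0.13 ± 0.07 (adjusted p = 0.153), -1.55 ± 0.07 (SE), adjusted p = 1.29e-14 and -1.14 ± 0.07 (SE), adjusted p = 1.07e-12, and without library 3 the day 0 value was 0.26 and passed (adjusted p = 1.00e-06). Usp29 measured 17.4, 16.6 and 15.1 at day 0, 24.8, 30.1 and 28.1 at day 2 and 129, 130.2 and 122 at day 6 in parental libraries (CPM). Usp29 in Oct1 cKO libraries measured 5.94, 5.41 and 4.96 at day 0, 14.1, 13.8 and 13.4 at day 2 and 47.9, 52.3 and 51.3 at day 6. Usp29 was already 3.01-fold lower in Oct1 cKO cells at day 0 (-1.60 ± 0.11 (SE), adjusted p = 2.04e-15), with day 2 and day 6 values of -1.001 ± 0.08 and -1.33 ± 0.06. Zim1 measured 2.06, 1.24 and 1.49 at day 0, 9.77, 10.1 and 9.37 at day 2 and 20.4, 22.9 and 19.9 at day 6 in parental libraries (CPM). Zim1 in Oct1 cKO libraries measured 1.203, 1.18 and 1.004 at day 0, 3.17, 3.91 and 3.81 at day 2 and 7.38, 7.702 and 8.13 at day 6. Zim1 did not overlap at any day, with -0.50 ± 0.25 at day 0 (adjusted p = 0.0964), -1.42 ± 0.12 at day 2 and -1.45 ± 0.10 at day 6; without parental library 2 the day 0 value was -0.65 and passed. The windows of Peg3 and Usp29 share 263 of their 300 bases, and Peg3 exceeded Usp29 per kilobase in every group (22.4 against 0.906 CPM at day 0 and 556 against 7.03 at day 6 in parental cells). Zim3, on the opposite strand, overlaps 14.3% of the exonic length of Usp29.

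Peg10, a retrotransposon-derived gene needed for the placenta, was higher in Oct1 cKO cells at day 0, lower at day 2 and higher again at day 6, by more than 2-fold each time. Peg10 measured 48.5, 52.2 and 53.4 at day 0, 5251, 5810 and 5669 at day 2 and 3022, 3043 and 2939 at day 6 in parental libraries (CPM). Peg10 in Oct1 cKO libraries measured 242, 245 and 207 at day 0, 2096, 2016 and 2138 at day 2 and 14487, 14091 and 14788 at day 6. Every Oct1 cKO library was above the parental ones at day 0 (4.51-fold), below at day 2 (2.68-fold) and above again at day 6 (4.82-fold), with log2 fold changes of 2.17 ± 0.06 (SE), adjusted p = 7.71e-27, -1.42 ± 0.05 (SE), adjusted p = 1.07e-23 and 2.27 ± 0.05 (SE), adjusted p = 7.84e-31. In parental cells Peg10 was highest at day 2 and in Oct1 cKO cells at day 6. Sgce, the epsilon-sarcoglycan gene that shares the Peg10 control region, showed no such swing: its means were 3.24 ± 0.437, 45.5 ± 2.598 and 96.2 ± 3.06 CPM in parental and 3.398 ± 0.105, 51.7 ± 1.703 and 122 ± 4.97 in Oct1 cKO cells (SD, n = 3). Its difference was 0.18 ± 0.06 at day 2, where it was -0.01 with library sizes alone and 0.12, not called, without parental library 1, and 0.35 ± 0.05 at day 6. Ppp1r9a measured 22.4, 22.2 and 24.6 at day 0, 87.3, 74.04 and 77.6 at day 2 and 80.5, 80.8 and 86.2 at day 6 in parental libraries (CPM). Ppp1r9a in Oct1 cKO libraries measured 18.4, 19.7 and 16.2 at day 0, 71.8, 84.4 and 76.8 at day 2 and 27.7, 29.6 and 31.6 at day 6. Ppp1r9a, which encodes the actin-binding protein neurabin, overlapped at day 2 and was 2.78-fold lower at day 6 (-1.48 ± 0.07 (SE), adjusted p = 5.70e-21); its day 0 difference was -0.36 ± 0.09. Asb4, which carries the octamer in its window, was low throughout, at 1.53 ± 0.238, 3.79 ± 0.302 and 4.56 ± 0.673 CPM in parental and 0.953 ± 0.395, 0.566 ± 0.388 and 0.845 ± 0.3197 in Oct1 cKO cells. It was lower at day 2 (-2.73 ± 0.28) and day 6 (-2.42 ± 0.25) and not called at day 0 (adjusted p = 0.0648), where it passed without Oct1 cKO library 1 (-1.05).

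In the Snrpn region, the 5 paternally expressed members split. Snrpn, which encodes a spliceosomal protein, was higher in Oct1 cKO cells at day 2 and day 6, whereas Ndn and Magel2, of the MAGE family, Mkrn3, a ring finger protein, and Peg12, of the FRAT family, were lower at both days. Snrpn measured 139, 145 and 144 at day 0, 116, 119 and 117 at day 2 and 39.2, 37.8 and 37.5 at day 6 in parental libraries (CPM). Snrpn in Oct1 cKO libraries measured 116, 120.3 and 127 at day 0, 171, 149 and 164 at day 2 and 111, 103 and 110 at day 6. The groups did not overlap at any day, and the fall of Snrpn in parental cells to day 6 was larger than in Oct1 cKO cells. The log2 fold changes were -0.23 ± 0.05, 0.46 ± 0.05 and 1.50 ± 0.06 (SE), adjusted p = 1.05e-24. Ndn measured 10.2, 10.7 and 10.9 at day 0, 30.1, 30.2 and 30.9 at day 2 and 79.3, 80.5 and 79.2 at day 6 in parental libraries (CPM). Ndn in Oct1 cKO libraries measured 10.8, 10.8 and 12.99 at day 0, 10.01, 8.98 and 10.4 at day 2 and 10.2, 8.74 and 9.85 at day 6. Ndn rose 7.52-fold in parental cells by day 6 and stayed between 8.74 and 12.99 CPM in Oct1 cKO cells, a difference of -1.64 ± 0.08 (SE), adjusted p = 3.36e-20 at day 2 and -3.05 ± 0.07 (SE), adjusted p = 7.31e-31 at day 6. Peg12 measured 6.56, 5.12 and 5.46 at day 0, 5.697, 5.91 and 4.98 at day 2 and 13.8, 16.3 and 15.98 at day 6 in parental libraries (CPM). Peg12 in Oct1 cKO libraries measured 5.04, 4.39 and 4.96 at day 0, 2.03, 2.1 and 1.404 at day 2 and 0.536, 0.695 and 0.318 at day 6. Peg12 had the most negative value of all members, -4.86 ± 0.19 (SE), adjusted p = 4.51e-24, a 29.7-fold lower mean, after -1.57 ± 0.17 at day 2.

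Mkrn3 measured 3.25, 3.77 and 4.28 at day 0, 9.54, 12.3 and 10.4 at day 2 and 13.53, 15.3 and 13.8 at day 6 in parental libraries (CPM). Mkrn3 in Oct1 cKO libraries measured 4.89, 4.71 and 4.33 at day 0, 5.32, 5.599 and 5.95 at day 2 and 6.01, 6.89 and 6.8 at day 6. Mkrn3 was lower, with -0.93 ± 0.12 at day 2 and -1.11 ± 0.11 at day 6 on the log2 scale, and not called at day 0 (0.29, adjusted p = 0.107). Magel2 measured 0.812, 0.788 and 1.303 at day 0, 7.28, 4.45 and 5.98 at day 2 and 0.398, 0.467 and 0.47 at day 6 in parental libraries (CPM). Magel2 in Oct1 cKO libraries measured 0.827, 1.57 and 1.76 at day 0, 2.598, 1.81 and 3.01 at day 2 and 0.119, 0.116 and 0.191 at day 6. Magel2 peaked at day 2 in both genotypes, lower in Oct1 cKO cells there (-1.27 ± 0.19 (SE), adjusted p = 3.08e-07); its day 0 difference passed only without Oct1 cKO library 1 (0.79). At day 6 it was low in every library, and its call (-1.61 ± 0.61, adjusted p = 0.018) did not hold without Oct1 cKO library 1 (-1.52) or library 2 (-1.44). Of the exonic length of Snrpn, 27.3% is shared with Gm38393 on the same strand, whose reads cannot be told apart from it. Neuronal markers, summed over 6 genes, were highest in the ESCs of day 0, at 348 to 356 CPM in parental and 390.5 to 455 in Oct1 cKO libraries. The sums were 47.3 to 51.7 and 142 to 153 at day 2 and 219 to 230.5 and 33.6 to 40.5 at day 6. Of the 6 tested, 2 were called higher and 2 lower at day 0, 3 and 2 at day 2, and 2 and 4 at day 6. Over all genes the shares were 26.4% and 27.0%, 33.7% and 33.6%, and 36.7% and 37.8%. The part of these markers in the results on this region was not tested.

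At the Igf2r locus, the maternally expressed Igf2r, a receptor that clears the IGF2 protein, and the paternal antisense RNA Airn, which silences it, moved in opposite directions from day 0 to day 6. Igf2r had group means of 257 ± 2.87, 215 ± 13.97 and 91.6 ± 3.31 CPM in parental cells and 130.5 ± 21.5, 195 ± 4.54 and 48.96 ± 2.25 in Oct1 cKO cells (SD, n = 3). It was lower in Oct1 cKO cells at day 0 (-0.98 ± 0.08 (SE), adjusted p = 9.09e-10) and day 6 (-0.90 ± 0.09 (SE), adjusted p = 3.96e-09). At day 2 it was not called (-0.14 ± 0.08, adjusted p = 0.102), but passed with DESeq2 (-0.18), with its size factors (-0.18), with library sizes alone (-0.34), with the day 2 libraries alone (-0.17) and without parental library 2 (-0.21). Airn rose from 0.403 ± 0.0568 CPM at day 0 to 23.4 ± 1.23 at day 6 in parental cells and from 0.4003 ± 0.149 to 31.1 ± 2.48 in Oct1 cKO cells, where it was higher at day 6 (0.41 ± 0.08 (SE), adjusted p = 1.27e-05). Its day 2 call (-0.40 ± 0.18, adjusted p = 0.0497) rested on overlapping groups and was lost with DESeq2 (-0.44), with the day 2 libraries alone (-0.43) and without parental library 1 (-0.38) or 3 (-0.33) or Oct1 cKO library 1 (-0.40) or 2 (-0.31). Slc22a3, an organic cation transporter gene under the same control region, reached 3.68 ± 0.302 CPM in parental and 0.705 ± 0.0634 in Oct1 cKO cells at day 6 (-2.38 ± 0.25 (SE), adjusted p = 6.51e-11) and was lower in Oct1 cKO cells at day 2 as well (-2.82 ± 0.76). At day 0 it passed only without Oct1 cKO library 2 (1.71).

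**Figure D3:**
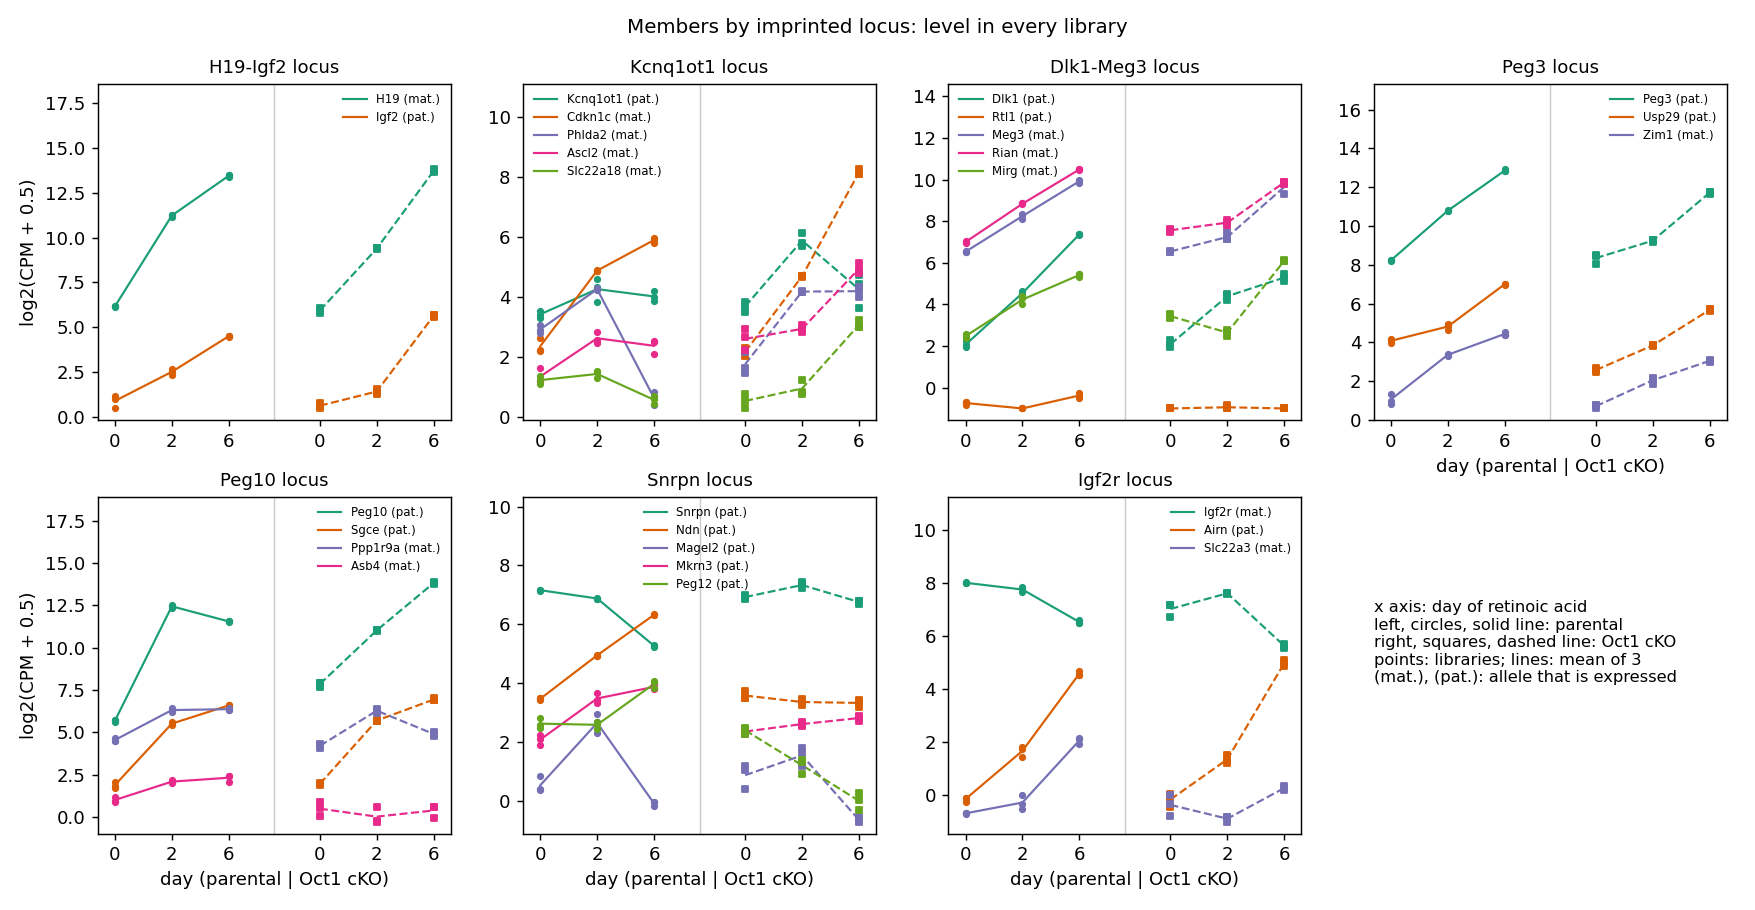
Log2(CPM + 0.5) of the 27 members of the 7 loci in every library (points; circles parental, squares Oct1 cKO), with lines through the group means at days 0, 2 and 6, spaced evenly. The 3 Peg3-locus genes rise together in both genotypes, the Kcnq1ot1-locus genes separate at day 6, and Igf2r ends lower at day 6 than at day 0 while Airn ends higher.

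Neighbours differed in how alike their courses were. Over the 6 group means of log2 CPM, the median correlation between members of a locus was 0.94 for H19 and Igf2, 0.93 at the Peg3 locus, 0.83 at Dlk1-Meg3, 0.54 at Peg10, 0.47 at Kcnq1ot1, 0.13 at Snrpn and -0.58 at Igf2r. Single pairs ran from 0.99 for Meg3 and Rian to -0.88 for Snrpn and Ndn, and Igf2r and Airn stood at -0.82. Rtl1, at or near 0, is in the Dlk1-Meg3 value. These are descriptions over 6 points that share their libraries, and the points of each pair share the time course.

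Among the 10 members outside these loci, Mest and Nnat were lower in Oct1 cKO cells at day 2 and day 6, and Slc38a4, Sfmbt2 and Rasgrf1 were higher at day 6. Mest encodes an enzyme of the alpha/beta-hydrolase fold that is typical of mesoderm. Mest measured 58.7, 56.6 and 56.9 at day 0, 1270, 1392 and 1276 at day 2 and 1835, 1817 and 1812 at day 6 in parental libraries (CPM). Mest in Oct1 cKO libraries measured 89.8, 90.04 and 82.3 at day 0, 250.9, 248 and 256 at day 2 and 219, 202 and 197 at day 6. Mest was above the parental level in every Oct1 cKO library at day 0 (1.52-fold) and below it at day 2 (5.22-fold) and day 6 (8.83-fold). The log2 fold changes were 0.60 ± 0.05 (SE), adjusted p = 5.07e-12, -2.38 ± 0.05 (SE), adjusted p = 9.85e-31 and -3.14 ± 0.05 (SE), adjusted p = 1.81e-35. Copg2, on the opposite strand, overlaps 23.1% of the exonic length of Mest, and its own log2 fold changes were -0.36, 0.38 and 0.24, in the direction opposite to Mest at each day. The separate line of Mir335, the hairpin inside Mest, chosen after its values were seen, held 0, 0 and 1 counts at day 0, 18, 11 and 20 at day 2 and 16, 17 and 11 at day 6 in parental libraries. In Oct1 cKO libraries Mir335 held 1, 0 and 2 counts at day 0, 3, 2 and 0 at day 2 and 1, 5 and 5 at day 6. Mir335 was lower at day 2 (-2.84 ± 0.58) and day 6 (-1.73 ± 0.49); such counts can be reads of the Mest precursor and not of mature miR-335.

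Nnat measured 6.81, 5.79 and 5.15 at day 0, 56.7, 53.6 and 53.4 at day 2 and 122, 124 and 125 at day 6 in parental libraries (CPM). Nnat in Oct1 cKO libraries measured 4.29, 4.39 and 5.27 at day 0, 13.6, 14.1 and 14.6 at day 2 and 16.9, 15.8 and 15.6 at day 6. Nnat, which encodes the membrane protein neuronatin, rose in both genotypes and rose further in parental cells, so that the groups were 3.86-fold apart at day 2 (-1.95 ± 0.07 (SE), adjusted p = 2.24e-24) and 7.71-fold at day 6 (-2.95 ± 0.06 (SE), adjusted p = 4.95e-32). Its day 0 call (-0.34 ± 0.13, overlapping groups) was lost with DESeq2 (-0.31), with the day 0 libraries alone (adjusted p = 0.0661), without parental library 1 (-0.23) and without Oct1 cKO library 1 (-0.28) or 2 (-0.29). Mesoderm and muscle markers, summed over 8 genes, overlapped between genotypes at day 0. Their sums there were 6.31 to 8.16 CPM in parental and 5.73 to 7.34 in Oct1 cKO libraries. Later they were 38.6 to 41.8 CPM in parental and 8.43 to 9.69 in Oct1 cKO libraries at day 2, and 217 to 248 and 17.4 to 19.3 at day 6. Of the 7 tested, 0 were called higher and 4 lower at day 2 (33.7% and 33.6% of all genes). At day 6, 2 were called higher and 3 lower (36.7% and 37.8%), so the list was mixed. Their part in the results on Mest was not tested.

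Grb10 measured 67.8, 63.6 and 69.2 at day 0, 293, 364 and 335 at day 2 and 87.8, 94.9 and 83.8 at day 6 in parental libraries (CPM). Grb10 in Oct1 cKO libraries measured 36.3, 33.6 and 31.1 at day 0, 172, 187 and 191 at day 2 and 37.9, 38.6 and 38.1 at day 6. Grb10, an adaptor that restrains insulin and growth factor signalling, peaked at day 2 in both genotypes and was lower in every Oct1 cKO library at every day (-0.99 ± 0.07, -0.85 ± 0.06 and -1.22 ± 0.07 (SE), adjusted p = 5.07e-17). Grb10 lies on chromosome 11, whose genes had a median log2 fold change of -0.38, -0.36 and -0.40 at day 0, day 2 and day 6, while the medians of the other autosomes lay between -0.05 and 0.18 over the 3 days. The part of this shift of the whole chromosome in the result on Grb10 was not tested. Plagl1 measured 144, 145 and 141 at day 0, 28.4, 26.1 and 25.5 at day 2 and 235, 229 and 229 at day 6 in parental libraries (CPM). Plagl1 in Oct1 cKO libraries measured 179.5, 179 and 149.6 at day 0, 12.8, 13.1 and 13.6 at day 2 and 194, 194 and 192 at day 6. Plagl1, a zinc finger protein that holds back growth of cells, dipped at day 2 in both genotypes, further in Oct1 cKO cells (-1.02 ± 0.08 (SE), adjusted p = 1.63e-14), and differed little at day 0 (0.24 ± 0.05) and day 6 (-0.26 ± 0.05).

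Slc38a4 measured 263, 255 and 268 at day 0, 512, 507 and 497 at day 2 and 638, 633 and 610.5 at day 6 in parental libraries (CPM). Slc38a4 in Oct1 cKO libraries measured 241, 244 and 230.5 at day 0, 699, 701 and 688 at day 2 and 1421, 1319 and 1404 at day 6. Slc38a4, an amino acid transporter of placenta and liver, rose in both genotypes and was higher in Oct1 cKO cells at day 2 (0.46 ± 0.04) and day 6 (1.14 ± 0.04 (SE), adjusted p = 3.30e-24). Its lower level at day 0 (-0.13 ± 0.04) was not called with DESeq2 size factors (-0.10) or without parental library 3 (-0.12). Sfmbt2 measured 21.5, 22.5 and 20.8 at day 0, 34.2, 38.3 and 38.1 at day 2 and 138, 142 and 138 at day 6 in parental libraries (CPM). Sfmbt2 in Oct1 cKO libraries measured 10.8, 10.8 and 9.6 at day 0, 19.8, 18.7 and 18.99 at day 2 and 516, 549 and 566 at day 6. Sfmbt2, a Polycomb-related protein of the trophoblast, was lower in Oct1 cKO cells at day 0 and day 2 (-1.06 ± 0.08 and -0.94 ± 0.06) and then 3.91-fold higher at day 6 (1.97 ± 0.05 (SE), adjusted p = 1.44e-30). Rasgrf1 measured 0.0625, 0.113 and 0.124 at day 0, 0.995, 0.909 and 0.997 at day 2 and 0.348, 0.2595 and 0.261 at day 6 in parental libraries (CPM). Rasgrf1 in Oct1 cKO libraries measured 0.0752, 0.235 and 0.126 at day 0, 0.5704, 0.525 and 0.535 at day 2 and 6.91, 8.69 and 7.88 at day 6. Rasgrf1, an activator of Ras, was low in most libraries and rose most at day 6 in Oct1 cKO cells, the highest log2 fold change among the members (4.72 ± 0.23 (SE), adjusted p = 4.95e-21); its lower level at day 2 (-0.82 ± 0.30) did not pass without Oct1 cKO library 2 (-0.80).

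Zdbf2 measured 155, 149 and 155 at day 0, 90.2, 74.2 and 82.4 at day 2 and 52.4, 48.8 and 49.98 at day 6 in parental libraries (CPM). Zdbf2 in Oct1 cKO libraries measured 252, 259.9 and 156 at day 0, 33.7, 41.4 and 36.4 at day 2 and 73.1, 83.2 and 84.5 at day 6. Zdbf2, a zinc finger gene, was called higher in Oct1 cKO cells at day 0 (0.54 ± 0.15), where library 3 lay just above the parental values and libraries 1 and 2 well above, lower at day 2 (-1.15 ± 0.17) and higher at day 6 (0.67 ± 0.17). Gnas, which encodes the stimulatory G protein alpha subunit along with several imprinted transcripts, rose from 182 ± 1.72 to 702 ± 29.1 CPM in parental and from 213 ± 17.2 to 534 ± 23.2 in Oct1 cKO cells (SD, n = 3), with differences of 0.22 ± 0.05, -0.15 ± 0.05 and -0.40 ± 0.05. Nespas and Gm20721, on the opposite strand, overlap 8.8% and 13.1% of its exonic length. Impact, a regulator of translation, had means of 233 ± 5.38, 117 ± 4.77 and 192 ± 7.13 CPM in parental and 160.4 ± 8.29, 136 ± 5.58 and 297 ± 6.17 in Oct1 cKO cells, lower at day 0 (-0.54 ± 0.05) and higher at day 2 (0.22 ± 0.05) and day 6 (0.63 ± 0.05). The day 2 call of Impact was lost with library sizes alone (0.03).

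**Figure D4:**
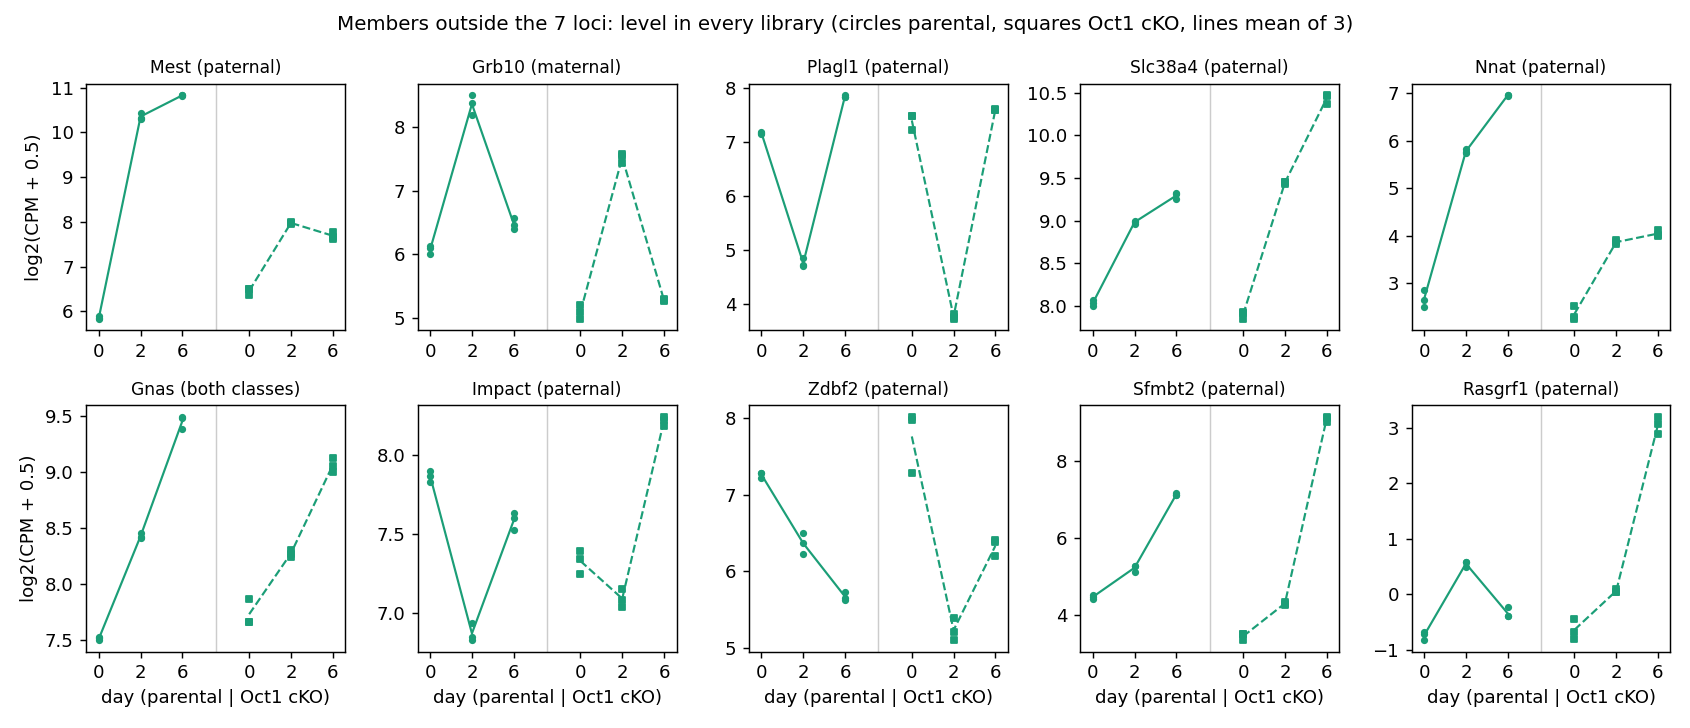
Log2(CPM + 0.5) of the 10 members outside the 7 loci in every library (circles parental, squares Oct1 cKO), with lines through the group means at days 0, 2 and 6, spaced evenly. Mest and Nnat climb less in Oct1 cKO cells, Slc38a4, Sfmbt2 and Rasgrf1 climb more, and Plagl1 dips at day 2 in both.

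Within each genotype, most members rose from day 0 to day 2 and to day 6. No series without retinoic acid is among the groups, so time and treatment cannot be told apart. In parental cells 29 of 36 were higher at day 2 than at day 0 (43.2% of all genes tested were) and 5 lower (37.7%), and 28 were higher at day 6 (45.3%) and 7 lower (40.2%). In Oct1 cKO cells 25 were higher at day 2 (41.0%) and 7 lower (35.5%), and 29 were higher at day 6 (41.4%) and 6 lower (40.4%). The comparisons of day 2 and of day 6 share the day 0 libraries of their genotype. The median log2 change from day 0 was 1.62 and 2.31 in parental cells at day 2 and day 6 and 0.89 and 2.35 in Oct1 cKO cells, where all genes had 0.08, 0.07, 0.08 and 0.00. Both genotypes had 23 members in common that were higher at day 2, and 25 at day 6. The share of all genes higher in both genotypes was not computed, and the shares in a single genotype ran from 41.0% to 45.3%. Among the 25, the rise of Grb10 in Oct1 cKO cells (0.186) was not called with DESeq2 (0.155) or with library sizes alone (0.156).

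By fold of the means to day 6, H19 rose 157-fold in parental and 224-fold in Oct1 cKO cells, Peg10 58.4- and 62.5-fold, Airn 58.2- and 77.6-fold, and Sgce 29.7- and 36-fold. The folds of Airn rest on day 0 groups with 20 and 17 counts in all. Mest rose 31.7-fold in parental cells and 2.36-fold in Oct1 cKO cells, and Cdkn1c 12.8- and 71.4-fold. Phlda2 and Slc22a18 fell in parental cells by day 6 (-2.75 and -0.90 on the log2 scale) and rose in Oct1 cKO cells (2.57 and 3.04). Ndn and Peg12 did the reverse, with 2.91 and 1.43 in parental and -0.28 and -3.19 in Oct1 cKO cells, though the fall of Ndn was not called without Oct1 cKO library 3 of day 0 (-0.19). Zdbf2, Snrpn, Igf2r and Magel2 were lower at day 6 than at day 0 in both genotypes. The day 2 falls of Snrpn and Igf2r in parental cells (-0.28 and -0.25) turned to 0.06 and 0.09, not called, with library sizes alone, and the fall of Magel2 to day 6 in parental cells (-1.10) was -0.84, not called, without parental library 3 of day 0.

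The interaction term of the same fit tests whether the change from day 0 differed between genotypes. It was called for 28 of 36 members at day 2 (57.0% of all genes), 8 with a larger rise or smaller fall in Oct1 cKO cells (30.1% of all genes) and 20 with the opposite (26.9%), and for 27 at day 6 (63.9%), 11 and 16 (32.0% and 31.9%). At day 2 its most negative values were those of Slc22a3 (-4.13 ± 1.02), Peg10 (-3.59 ± 0.08) and Mest (-2.99 ± 0.07). At day 6 it ran from -4.61 ± 0.27 for Peg12 and -3.75 ± 0.07 for Mest to 5.33 ± 0.23 for Phlda2 and 4.24 ± 0.95 for Rasgrf1. Peg10 had no called difference in its change to day 6 (0.10 ± 0.08, adjusted p = 0.279), and neither did Kcnq1ot1, Meg3, Usp29, Sgce, Igf2r, Airn, Grb10 and Zdbf2. Usp29 passed without parental library 3 of day 0 (0.32) or Oct1 cKO library 1 of day 0 (0.34), and Grb10 without parental library 3 of day 0 (-0.25) or of day 6 (-0.25).

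**Figure D5:**
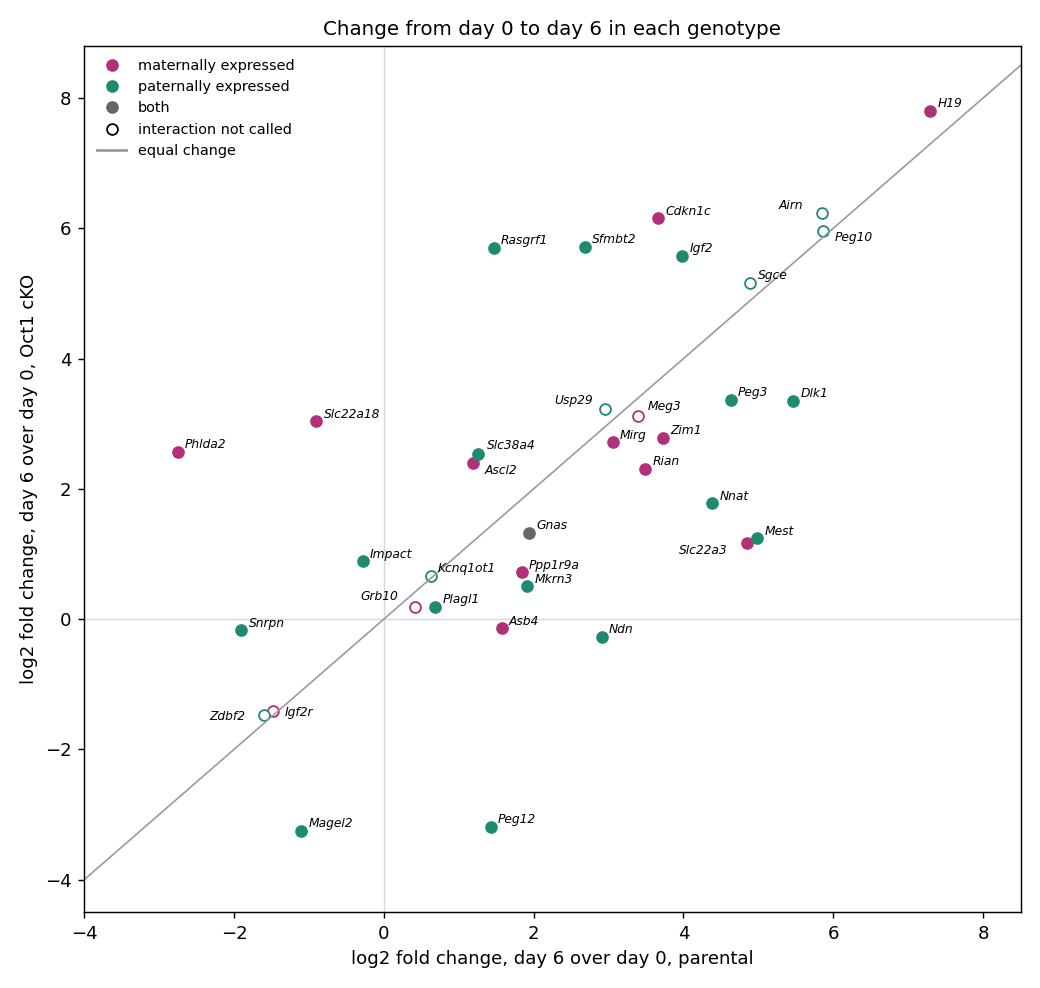
Log2 fold change from day 0 to day 6 in parental cells (x axis) and in Oct1 cKO cells (y axis) for the 36 tested members; colours show the expressed allele, open symbols an interaction that was not called, and the line an equal change. Most members lie in the upper right, and 25 were called higher in both genotypes. Of all genes, 45.3% were called higher in parental and 41.4% in Oct1 cKO cells, and the share in both was not computed. Phlda2 and Slc22a18 lie left of 0 and above it, and Ndn and Peg12 right of 0 and below it.

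For comparison, 44 other imprinted genes were listed, of which 40 were in the table and 39 were tested. In Oct1 cKO cells 13 of them were higher and 12 lower at day 0, 8 and 17 at day 2, and 11 and 21 at day 6, with median log2 fold changes of 0.05, -0.21 and -0.42. Over all genes tested, 26.4% were called higher and 27.0% lower at day 0, 33.7% and 33.6% at day 2, and 36.7% and 37.8% at day 6, so the day 0 counts lay near the background. The smallest adjusted p-values at day 0 were those of the phospholipid flippase gene Atp10a (-2.36), the thyroid hormone deiodinase gene Dio3 of the Dlk1-Meg3 region (1.90), Smoc1 (-0.74) and Cd81 (0.50). At day 2 they were those of Ddc (-1.29), a neighbour of Grb10, Smoc1 (-0.97), Atp10a (-1.02) and Copg2 (0.38). At day 6 they were those of the extracellular matrix gene Dcn (-5.30), Ddc (-2.77), Axl (-3.07) and Gab1 (1.41). Ddc lies near Grb10 on chromosome 11, and the part of the shift of that chromosome in its values was not tested. Dcn, decorin, averaged 113 CPM in parental and 2.84 in Oct1 cKO cells at day 6.

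The genes that keep or write imprints were given as a list of 24, all tested. In Oct1 cKO cells 10 were higher and 7 lower at day 0, 16 higher and 2 lower at day 2, and 9 higher and 10 lower at day 6, with median log2 fold changes of 0.01, 0.33 and -0.02. The same shares of all genes were 26.4% and 27.0%, 33.7% and 33.6%, and 36.7% and 37.8%. The day 6 counts and the 7 lower at day 0 lay near these shares. The 10 of 24 higher at day 0 and 16 of 24 higher at day 2 lay above them, and the 2 lower at day 2 below. Dnmt3l, the cofactor of the de novo DNA methyltransferases, was higher at each day: its means were 174, 364 and 1.798 CPM in parental and 336, 872 and 60.8 in Oct1 cKO cells, with log2 fold changes of 0.95, 1.26 and 5.08. Zfp57, which holds methylation at imprinting control regions, was higher at day 0 (0.49) and day 2 (1.16) and lower at day 6 (-1.74). Dppa3, which protects imprints in the zygote, was lower at day 0, with 77.8 CPM in parental and 15.5 in Oct1 cKO cells (-2.31), and Suz12, a Polycomb subunit, with 1325 and 625 CPM (-1.08). Suz12, like Grb10, lies on chromosome 11, whose genes had a median log2 fold change of -0.38 at day 0. The part of that shift in the result on Suz12 was not tested. Dnmt3b was higher at day 0 (0.87) and day 6 (2.12), Eed (0.86) and Ehmt2 (0.83) at day 2, and the maintenance methyltransferase Dnmt1 at day 6 (0.72). DNA methylation was not measured here. Extraembryonic endoderm markers, another lineage rich in imprinted RNA, summed to 126 to 130.2 CPM in parental and 136 to 146 in Oct1 cKO libraries at day 2. The sums were 638 to 680.2 and 669 to 699.9 at day 6, where 8 of 10 were higher and 2 lower (36.7% and 37.8% of all genes were). The part of these markers in the results was not tested.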

How the data were processed

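Counts were deposited by the authors as unnormalized whole numbers, 1 for each of 21995 genes and 18 libraries. Per the submitters' processing notes, Novoalign, DESeq2 1.10.0 and the builds mm10 and GRCm38 were used, with no role given. How reads were counted (program, gene annotation, strand, reads with several matches) is not given in the sources used here. Table columns that were not used numbered 0. Groups were taken from the genotype and day in the labels. Coordinates, exonic lengths and overlaps came from GENCODE M21 on GRCm38 (21977 identifiers matched).

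Genes passing filterByExpr of edgeR 4.0.16 (R 4.3.3, limma 3.58.1; minimum count 10, minimum total 15) were fitted with TMM scaling and 1 coefficient per group over the 18 libraries (12 residual degrees of freedom) by robust glmQLFit and glmQLFTest, and p-values were adjusted by Benjamini-Hochberg over the 18352 genes. The standard error (SE) of a log2 fold change was derived from this test, as its size divided by the square root of the F statistic. The code was tested on simulated data. The members and lists were chosen with earlier results of these data known. Values in every library are given for H19, Mest and each member that reached a group mean of 5 CPM and had a called genotype difference of 2-fold or more at 1 day or more, 28 in all; the others are given by group means. Of the other imprinted genes and of the imprint keepers, up to 4 with the smallest adjusted p per day are named. Alternatives were DESeq2 size factors, library sizes alone, no filter, DESeq2 1.42.0, only the libraries compared, a 2-fold minimum and leaving out each library. Columns were matched to libraries by title.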

Additional observations from a re-analysis of the deposited data

Results flagged for a closer look

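The change from day 0 to day 2 differed between the genotypes for 28 members by the interaction test of edgeR. Values are the log2 change in Oct1 cKO cells minus that in parental cells. It was more positive in Oct1 cKO cells for 8: Kcnq1ot1 (1.35), Phlda2 (1.15), Igf2r (0.84), Impact (0.76), Snrpn (0.69), Usp29 (0.60), Slc38a4 (0.60) and Ppp1r9a (0.32). It was more negative for 20: Slc22a3 (-4.13), Peg10 (-3.59), Mest (-2.99), Mirg (-2.70), Asb4 (-2.03), Magel2 (-1.81), Ndn (-1.76), Zdbf2 (-1.68), Peg3 (-1.68), Nnat (-1.62), H19 (-1.61), Rian (-1.47), Peg12 (-1.33), Plagl1 (-1.26), Mkrn3 (-1.23), Ascl2 (-1.15), Meg3 (-1.01), Zim1 (-0.92), Igf2 (-0.84) and Gnas (-0.38).

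The change from day 0 to day 6 differed between the genotypes for 27 members by the interaction test of edgeR. Values are the log2 change in Oct1 cKO cells minus that in parental cells. It was more positive in Oct1 cKO cells for 11: Phlda2 (5.33), Rasgrf1 (4.24), Slc22a18 (3.94), Sfmbt2 (3.03), Cdkn1c (2.49), Snrpn (1.73), Igf2 (1.59), Slc38a4 (1.27), Ascl2 (1.202), Impact (1.17) and H19 (0.51). It was more negative for 16: Peg12 (-4.61), Mest (-3.75), Slc22a3 (-3.69), Ndn (-3.18), Nnat (-2.61), Magel2 (-2.15), Dlk1 (-2.11), Asb4 (-1.71), Mkrn3 (-1.41), Peg3 (-1.27), Rian (-1.19), Ppp1r9a (-1.12), Zim1 (-0.95), Gnas (-0.62), Plagl1 (-0.49) and Mirg (-0.34).

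Some of these did not pass without 1 library. The day 6 value of Mirg was -0.30 without Oct1 cKO library 3 of day 0 and lost its call without any 1 of 6 libraries. The day 2 value of Igf2 was -0.61 without parental library 1 of day 0, -0.72 without Oct1 cKO library 1 of day 0 and -0.75 without Oct1 cKO library 2 of day 2. The day 2 value of Ppp1r9a was 0.23 without parental library 2 of day 2, 0.26 without library 3 and 0.23 without Oct1 cKO library 3 of day 0.

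The tests at day 2 and at day 6 share the day 0 libraries. Groups of 3 libraries are too small for the outlier test on single values; the day 0 Oct1 cKO library that stood apart is described in the report. The count table held no data outside the comparisons of the report.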

How the results depend on the processing

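Over the single members tested and the alternatives other than leaving out a library, 1784 values kept direction and call, 109 lost the call, 23 gained it and 18 changed sign. Where a value changed below, the cause was not tested, except that a 2-fold minimum counts fewer genes by construction.

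With a 2-fold minimum, members called in Oct1 cKO against parental cells were 3 higher and 3 lower at day 0, 1 higher and 17 lower at day 2 and 10 higher at day 6; against day 0, 1 was lower in parental and 4 in Oct1 cKO cells at day 2, and 2 were higher in the day 2 interaction. Library sizes alone moved the median log2 fold change of all genes between genotypes to -0.20 at day 2 and -0.19 at day 6, and to 0.42 and 0.24 for day 2 against day 0 in parental and Oct1 cKO cells. The share of called genes that were higher in Oct1 cKO cells was then 34.2% at day 2 and 38.4% at day 6, against 50.1% and 49.3% with TMM. Under this scaling 3 members were called higher at day 2 and 3 lower in parental cells at day 2.

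Under library sizes alone, these values changed sign: Meg3 (-0.001) and Airn (-0.001) at day 0, Sgce (-0.008) at day 2, Snrpn (0.056), Peg12 (0.297) and Igf2r (0.086) for parental day 2 against day 0, Cdkn1c (-0.141), Sgce (-0.071), Grb10 (-0.034) and Sfmbt2 (-0.06) in the day 2 interaction, and Kcnq1ot1 (-0.149), Peg10 (-0.095), Igf2r (-0.117) and Zdbf2 (-0.059) in the day 6 interaction. The day 2 interaction of Cdkn1c, not called, was also negative with DESeq2 size factors (-0.032), no filter (-0.004), DESeq2 (-0.035) and only the libraries compared (-0.011).

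Leaving out 1 library gave 8 to 9 members higher and 11 to 13 lower at day 0, 4 to 6 and 23 to 27 at day 2, and 16 to 17 and 17 to 19 at day 6. Uncalled values that changed sign ran from -0.09 to 0.133 for Dlk1, -0.001 to 0.185 for Sgce and -0.198 to 0.253 for Airn at day 0, -0.103 to 0.014 for Ppp1r9a at day 2, -0.118 to 0.064 for Peg12 in parental day 2 against day 0, -0.461 to 0.202 for Asb4 in Oct1 cKO day 6 against day 0, -0.151 to 0.121 for Cdkn1c and -0.001 to 0.176 for Sgce in the day 2 interaction, and -0.211 to 0.281 for Kcnq1ot1, -0.079 to 0.154 for Igf2r and -0.092 to 0.263 for Zdbf2 in the day 6 interaction.

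Alternatives for class medians were chosen after seeing the data. The maternal median was -0.35 at day 0 with only the libraries compared (-0.36 to -0.27 leaving out a library), and -1.07 at day 2 and -0.65 at day 6 with library sizes alone. The paternal median was -1.19 at day 2 with library sizes alone (-1.03 to -0.95 leaving out a library), and 0.11 with library sizes alone, 0.07 with no filter and 0.09 with DESeq2 at day 6 (0.09 to 0.36 leaving out a library). The median correlation at the Snrpn locus was 0.245 with library sizes alone, and at the Igf2r locus -0.61 with DESeq2 size factors and -0.48 with library sizes alone. On the plus strand only, 0 member windows held the octamer and 1 held TGCCGC.

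No paired analysis was possible because the labels give no replicate numbers that tie libraries across groups. Low counts limit Rtl1, Slc22a3, Magel2, Rasgrf1 and Asb4, whose differences rest on a few CPM or less. Counts per library were also low for Airn at day 0 (3 to 7). So were those of Peg12 at day 6 in Oct1 cKO cells (5 to 12) and of Phlda2 at day 6 in parental cells (16 to 24). Alleles, methylation and mature microRNAs were not measured.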
